A study of Cricetulus griseus with 6 samples.

Results

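Expression of 10 genes of iron storage, heme breakdown and iron transport was followed in CHO-T cells after silencing of *Xbp1*, namely *Fth1*, *Ftl*, *Hmox1*, *Blvrb*, *Ncoa4*, *Ireb2*, *Aco1*, *Tfrc*, *Slc11a2* and *Slc40a1*. They were taken by gene symbol, and all 10 were found, on 1 row each, among the 27873 entries of the expression tables. After transfection with *Xbp1* siRNA, *Fth1* and *Hmox1* fell by 71.4% and 71.1% of their control levels, and *Blvrb* fell by 40.9%. The other 7 did not pass the test at an adjusted p under 0.05. The gene set was chosen by function but also selected on measured values, namely the lower FPKM of *Fth1* and *Hmox1* with *Xbp1* siRNA in these libraries, so the differences are a description and no p-value is given for them.

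Iron that a cell does not use at once is held in ferritin, a hollow shell built of heavy chains (*Fth1*), which oxidise the iron as it enters, and light chains (*Ftl*), which help to deposit it. Heme oxygenase 1 (*Hmox1*) opens the heme ring and sets free iron, carbon monoxide and biliverdin, which biliverdin reductases then reduce to bilirubin. Iron regulatory proteins (*Aco1*, *Ireb2*) bind hairpins in the mRNAs of ferritin, of the transferrin receptor and of some iron transporters, and act there on translation or on mRNA stability. Transcription of ferritin and heme oxygenase genes is known to be raised by the factor NRF2 and held down by BACH1.

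The CHO-T line derives from Chinese hamster ovary cells, into which a retrovirus brought mouse T-cadherin cDNA, and was selected with puromycin, so both conditions share the transgene and the selection. Cells received negative control siRNA or *Xbp1* siRNA and were harvested 48 h later, and 3 libraries of polyadenylated RNA were made for each condition. The paper lists 1 *Xbp1* siRNA sequence, so loss of *Xbp1* and other effects of that sequence cannot be told apart. Each deposited file gives 1 library in FPKM, a fragment count scaled to transcript length and to library size. The labels do not say whether the 3 libraries of a condition came from separate cultures. In general the paper speaks of at least 3 independent biological experiments unless otherwise stated, but its RNA-Seq methods do not describe the cultures. The p-values measure the spread between these libraries, which may be technical.

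*Xbp1* was at 26.0, 26.2 and 28.4 FPKM in the control siRNA libraries and at 2.18, 2.11 and 1.39 FPKM in the *Xbp1* siRNA libraries, and its log2 fold change was −3.78 (SE 0.16, adjusted p = 5.61e-06, limma). *Cdh13*, the gene of T-cadherin, was above 0 in all 6 libraries, with means of 85.2 FPKM in the control and 32.9 FPKM in the *Xbp1* siRNA libraries. Apart from the transgene, the paper reports no detectable endogenous T-cadherin in these cells. How much of this entry comes from the transgene was not tested. Of 5 genes typical of granulosa cells of the ovary, 3 were matched by name, of which *Fshr* was listed at 0 in all libraries and *Amh* and *Inha* were between 2.05 and 4.10 FPKM. The files state no read totals, but the steps between low FPKM values gave the library size used in the scaling, here called depth. Relative to control replicate 1, depth ran from 94.0% in control replicate 2 to 116.2% in *Xbp1* siRNA replicate 3. FPKM summed to 646651 to 666267 in the control libraries and to 593487 to 600986 in the *Xbp1* siRNA libraries. The role of this difference in the values below was not tested, beyond the scaling alternatives. In bulk RNA, a lower level in every cell and a loss from some of the cells cannot be told apart.

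The heavy chain of ferritin was the most abundant transcript of the 10. *Fth1* had 4550.1, 4365 and 4289 FPKM with control siRNA and 1252, 1249.5 and 1271 FPKM with *Xbp1* siRNA. The *Xbp1* siRNA libraries lay close together and far under the lowest control library. The group means were 4401 ± 134 and 1257 ± 11.7 FPKM (SD, n = 3 each), a log2 fold change of −1.81 (SE 0.032, 95% interval −1.88 to −1.73) on the log2(FPKM + 0.1) scale. By level, *Fth1* stood between rank 10 and rank 11 of all entries in the control libraries and between rank 50 and rank 51 in the *Xbp1* siRNA libraries. Its share of the summed FPKM was 0.663% to 0.683% in the former and 0.210% to 0.211% in the latter. The mean of *Fth1* dropped by 3144 FPKM, which equals 5.36% of the whole difference between the FPKM sums of the conditions. In this loss *Fth1* ranked 2 among all entries, next to *Rps2*, a ribosomal protein gene of rank 1.

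Heme oxygenase 1 moved by nearly the same factor. *Hmox1* had 1852, 1791 and 1797 FPKM in the control libraries and 517, 512 and 544 FPKM in the *Xbp1* siRNA libraries, so that again the conditions did not overlap. Its mean was 1813 ± 33.9 FPKM with control siRNA and 524 ± 17.2 FPKM with *Xbp1* siRNA (SD, n = 3 each), and its log2 fold change was −1.79 (SE 0.034, 95% interval −1.87 to −1.71). *Hmox1* ranked 41 to 42 by level in the control libraries and 123 to 125 in the *Xbp1* siRNA libraries. Among the 83 entries with a control mean of at least 1000 FPKM, *Fth1* and *Hmox1* were in places 3 and 4 by the size of the decrease, and 7 of the 83 were called lower. Among all 359 entries called lower they held places 55 and 58.

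The levels of *Fth1* and *Hmox1* kept a steady proportion to each other, a comparison chosen after their values were seen. Their FPKM ratio was 2.46, 2.44 and 2.39 in the control libraries, and after *Xbp1* silencing it was 2.42, 2.44 and 2.34. The mean ratio was 2.43 ± 0.0360 in the first group and 2.40 ± 0.0557 in the second (SD, n = 3 each), a difference smaller than either SD. The ratio of *Hmox1* to *Blvrb* did not stay level, at 7.93 ± 0.189 in the control libraries against 3.87 ± 0.0678 with *Xbp1* siRNA (SD, n = 3 each). After quantile normalization, which gives all libraries the same distribution, the log2 fold changes were −1.57 for *Fth1* and −1.51 for *Hmox1*.

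**Figure D1:**
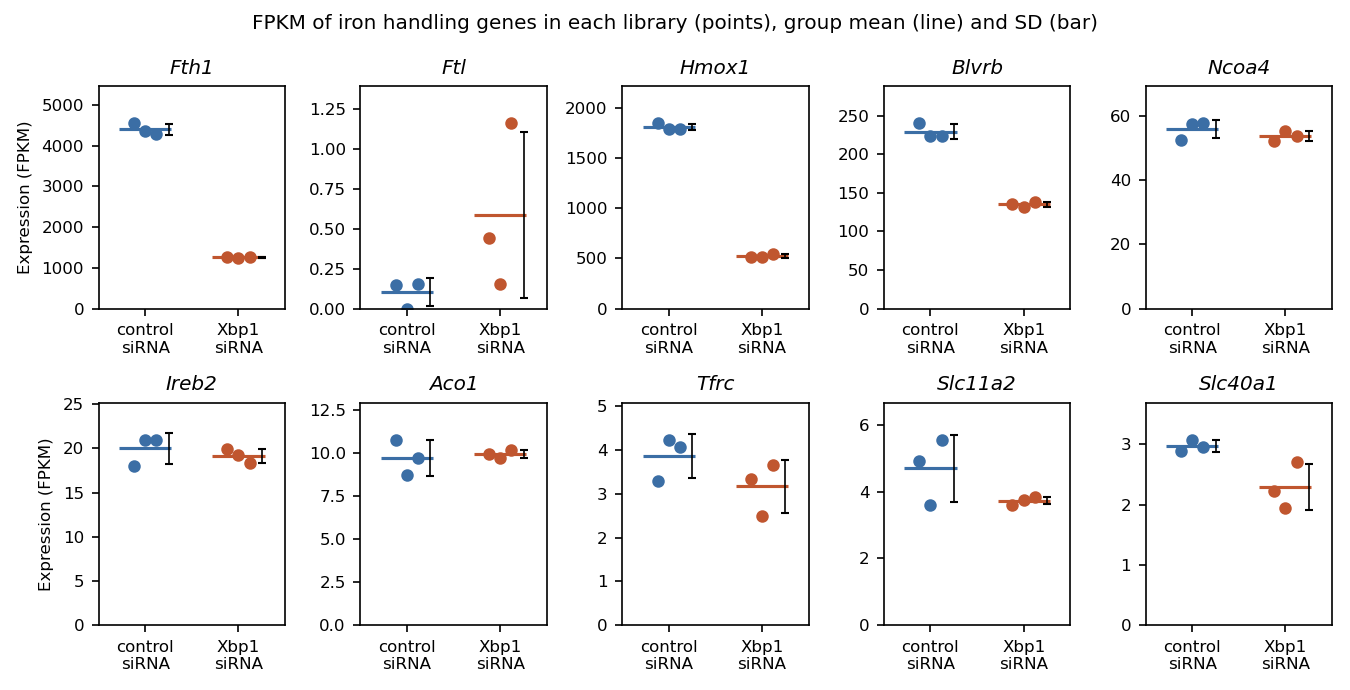
Expression in FPKM (vertical axes, each from 0) of the 10 iron handling genes in the 3 control siRNA libraries (blue) and the 3 *Xbp1* siRNA libraries (red). Points are libraries, lines are group means and black bars are SDs. *Fth1*, *Hmox1* and *Blvrb* separate widely, *Slc40a1* separates by a small margin, and the other 6 genes overlap between conditions.

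The entry for the ferritin light chain held almost no reads. *Ftl* had 0.150, 0 and 0.153 FPKM in the control libraries and 0.439, 0.153 and 1.16 FPKM in the *Xbp1* siRNA libraries. On the step scale these values equal 1, 0 and 1 reads against 3, 1 and 9 reads, and the conditions overlap. Adjusted for depth, the *Xbp1* siRNA libraries had 5.99 times as many reads (95% interval 1.36 to 54.7, counting error only), and 2.91 times (0.417 to 32.2) without *Xbp1* siRNA replicate 3, which holds most of them. Light chain mRNA is known as abundant in most mammalian cells, and ferritin genes have many near-identical processed copies in rodent genomes. How reads that fit several copies were assigned is not given in the sources used here, so the values of *Ftl* and *Fth1* are uncertain in that respect, and no ratio of heavy to light chain is given because *Ftl* was listed at 0 in 1 control library.

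Biliverdin reductase B, which reduces biliverdin as well as flavins, was intermediate in level and in change. *Blvrb* had 240.3, 223 and 224 FPKM with control siRNA and 136, 131 and 138 FPKM with *Xbp1* siRNA. Every *Xbp1* siRNA library lay under every control library. These values correspond to 1407, 1227 and 1283 reads against 817, 755 and 941 reads. The log2 fold change was −0.76 (SE 0.040, 95% interval −0.85 to −0.66), which passed the adjusted p but not the fold limit of 1 on the log2 scale.

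*Ncoa4*, the cargo receptor that takes ferritin to the lysosome for iron release, had nearly equal levels in both conditions. It was at 52.6, 57.5 and 57.8 FPKM in the control libraries and at 52.2, 55.2 and 53.7 FPKM in the *Xbp1* siRNA libraries, a log2 fold change of −0.06 (SE 0.049, 95% interval −0.17 to 0.06). With between 1621 and 1920 reads in each library, this interval does not extend to the change seen in *Fth1*. The ratio of *Fth1* to *Ncoa4* was accordingly 78.9 ± 6.64 with control siRNA and 23.4 ± 0.715 with *Xbp1* siRNA (SD, n = 3 each).

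The mRNAs of both iron regulatory proteins differed by less than the spread between libraries. *Ireb2*, which encodes IRP2, had 18.0, 21.0 and 21.0 FPKM against 19.9, 19.3 and 18.3 FPKM, a log2 fold change of −0.06 (95% interval −0.23 to 0.12). *Aco1*, which encodes IRP1, the protein that also serves as cytosolic aconitase, had 10.8, 8.71 and 9.71 FPKM against 9.96, 9.72 and 10.2 FPKM, a log2 fold change of 0.04 (95% interval −0.17 to 0.25). In *Aco1* the 3 *Xbp1* siRNA libraries all lay inside the range of the control libraries. Its sign turned to −0.04 without control replicate 2. The fitted intervals bound both changes well short of the limit used for calling a gene. mRNA values do not measure the binding activity of these proteins.

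The 3 membrane proteins that move iron were weakly expressed and slightly lower on average. *Tfrc*, the receptor that takes up transferrin-bound iron, had 3.29, 4.24 and 4.07 FPKM with control siRNA and 3.35, 2.50 and 3.67 FPKM with *Xbp1* siRNA. Its lowest value was in *Xbp1* siRNA replicate 2, and the conditions overlapped, with a log2 fold change of −0.29 (SE 0.17, 95% interval −0.69 to 0.12). *Tfrc* was counted with 53 to 92 reads in a library, for which counting error alone comes to 11.1% of a control library of mean size. Without *Xbp1* siRNA replicate 2 its log2 fold change was −0.13.

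*Slc11a2*, the divalent metal transporter DMT1 that carries iron across endosomal and apical membranes, had 4.92, 3.61 and 5.56 FPKM against 3.61, 3.75 and 3.83 FPKM. The control libraries spread far more widely than the *Xbp1* siRNA libraries, whose values lay near the lowest control value. Its log2 fold change was −0.30 (SE 0.16, 95% interval −0.68 to 0.07), and ranged from −0.48 to −0.17 when single libraries were left out.

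*Slc40a1*, which encodes ferroportin, the exporter of iron from cells, had 2.89, 3.08 and 2.95 FPKM with control siRNA and 2.22, 1.95 and 2.71 FPKM with *Xbp1* siRNA. The conditions did not overlap, but by a narrow gap between 2.71 and 2.89 FPKM. In reads, each of the control libraries held 80, and the *Xbp1* siRNA libraries held 63, 53 and 87, the last of them at the greatest depth. The log2 fold change was −0.37 (SE 0.15, 95% interval −0.72 to −0.02), and the gene did not pass the adjusted p.

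Within the control libraries the 10 genes covered a wide range of levels per length of transcript, falling in the order *Fth1*, *Hmox1*, *Blvrb*, *Ncoa4*, *Ireb2*, *Aco1*, *Slc11a2*, *Tfrc*, *Slc40a1* and *Ftl*. Neighbours in this order had separate ranges over the 3 libraries, except *Slc11a2* and *Tfrc*, which overlapped. The order was the same with *Xbp1* siRNA, where *Tfrc* also overlapped with *Slc40a1*. The means ran from 4401 FPKM for *Fth1* over 56.0 FPKM for *Ncoa4* to 2.98 FPKM for *Slc40a1* with control siRNA, and *Ftl* lay under all of these.

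Genes were called when the p-value of limma, adjusted over the 14361 genes with a mean of at least 0.1 FPKM, was under 0.05 and the log2 fold change reached 1 in either direction. All 10 genes passed the filter on low values. *Fth1* and *Hmox1* were called lower, 2 of the 10, beside a background of 2.50% of all genes tested, and 0 were called higher, beside 2.69%, so 2 were called in either direction, beside 5.19%. At an adjusted p under 0.05 without the fold limit, 3 were lower and 0 higher, beside 20.2% of all genes in each direction and 40.4% in either. The conditions did not overlap in 4 of the 10, all of them lower, beside 51.8% of all genes, of which 25.8% were lower and 26.1% higher as shares of all genes tested. Since the choice of the genes drew on this comparison, nothing is read from these counts. The median log2 fold change of the 10 genes was −0.29, against 0.01 for all genes tested.

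**Figure D2:**
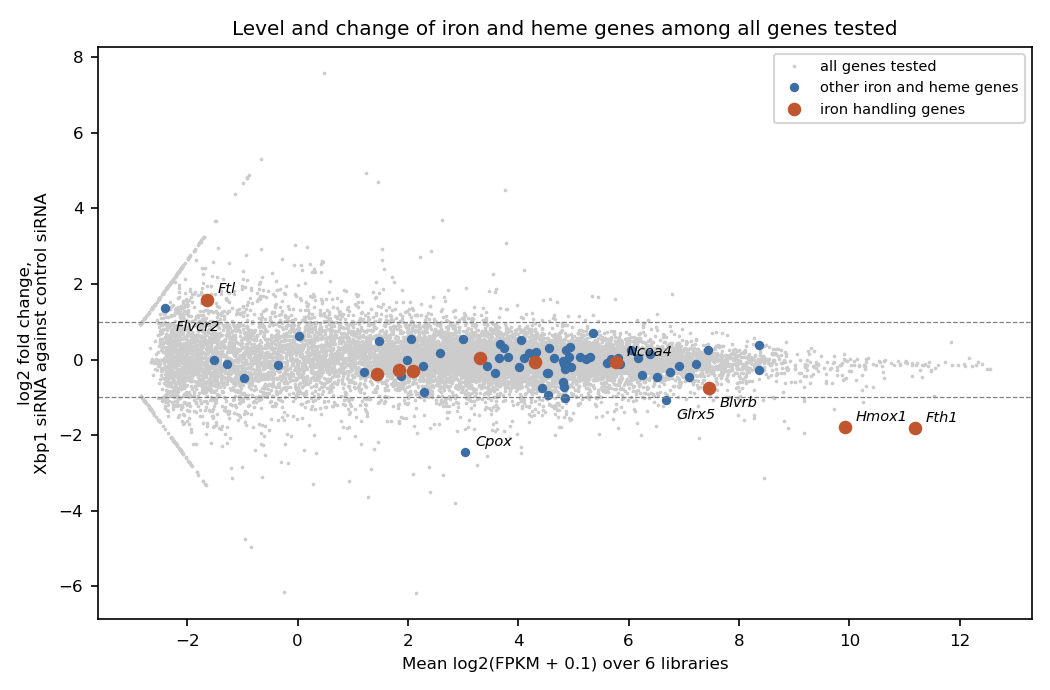
Mean log2(FPKM + 0.1) over the 6 libraries (horizontal axis) against the log2 fold change with *Xbp1* siRNA (vertical axis) for all 14361 genes tested (grey), the 10 iron handling genes (red) and 67 other iron and heme genes (blue). Dashed lines mark a log2 fold change of 1 in each direction. *Fth1* and *Hmox1* lie at the abundant end at −1.81 and −1.79, where few genes are so far from 0, while *Ftl* lies at the low end.

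The pattern over the 6 libraries was set beside that of 6656 genes with a symbol and a mean of at least 10 FPKM, by the distance between log2 values centred on the control mean. The nearest gene to *Fth1* was *Hmox1*, and the nearest to *Hmox1* was *Fth1*, at a Euclidean distance of 0.0632. Next to *Fth1* came *Myo1c*, a class I myosin, at 0.123 and *Cmtm6* at 0.130, and next to *Hmox1* came *Myo1c* at 0.124 and *Hmga1*, a chromatin protein, at 0.126. *Myo1c* had 168, 163 and 165 FPKM with control siRNA and 50.0, 49.2 and 48.3 FPKM with *Xbp1* siRNA, and the log2 fold change was −1.75. As the libraries belong to 2 conditions, the distance mostly reflects the size of the fold change, and since *Fth1* and *Hmox1* were selected on these same values, their closeness is a description only.

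Other genes that handle iron and heme were taken from a list of 81 genes in 6 groups by function. Of these, 76 were matched to the files, among them *Slc39a8*, *Herc2* and *Cisd2* by the gene ID of an entry without a gene name, and 67 passed the filter. *Alas2*, *Abcg2*, *Cd163* and *Scara5* were listed at 0 in all libraries. *Cpox*, *Glrx5* and *Fdx1* were called lower, 4.48% of the genes tested against the background of 2.50%, and *Flvcr2* was called higher, 1.49% against 2.69%. *Flvcr2* had a mean of 0.0204 FPKM with control siRNA and 0.203 FPKM with *Xbp1* siRNA, so it passed the filter at 0.1 FPKM only through the group in which it was high, and its call supports nothing. At an adjusted p under 0.05 alone, 19 genes (28.4%) were lower and 16 (23.9%) higher, beside 20.2% of all genes in each direction. The median log2 fold change of the 67 genes was −0.02. The list was drawn up with earlier results of these data known, so its shares are a description.

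By fold change, the largest decrease among the iron and heme genes tested was that of *Cpox* in heme synthesis, although *Fth1* and *Hmox1* lost far more FPKM. This mitochondrial enzyme, which oxidises coproporphyrinogen, had 19.0, 18.5 and 19.8 FPKM with control siRNA and 3.01, 3.26 and 4.12 FPKM with *Xbp1* siRNA. All *Xbp1* siRNA libraries lay far under the control libraries, with 78, 81 and 121 reads against 482, 441 and 490. The decrease was 81.9%, a log2 fold change of −2.44 (SE 0.12, adjusted p = 7.94e-06, limma). *Uros*, which closes the ring to uroporphyrinogen, fell by 47.5%, with 33.2, 30.7 and 31.5 FPKM against 16.0, 18.0 and 16.1 FPKM (log2 fold change −0.93, adjusted p = 3.67e-05, limma). *Urod*, the decarboxylase between these steps, rose by 0.32 on the log2 scale, at an adjusted p of 0.0110 (limma), as did *Tmem14c*, a mitochondrial porphyrinogen transporter, with 0.24.

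*Alas1*, the first and rate-limiting enzyme outside erythroid cells, changed by −0.25 on the log2 scale at an adjusted p of 0.0419 (limma), with overlapping conditions, and its adjusted p exceeded 0.05 in 7 of 14 alternatives, up to 0.124. Of the 11 genes of the group tested, 3 were lower (27.3%) and 2 higher (18.2%) at an adjusted p under 0.05, near the 20.2% of all genes in each direction, and the remaining 6 did not pass. These included *Alad*, *Ppox* and *Fech*, named here after their values were seen, with log2 fold changes between −0.04 and 0.08.

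**Figure D3:**
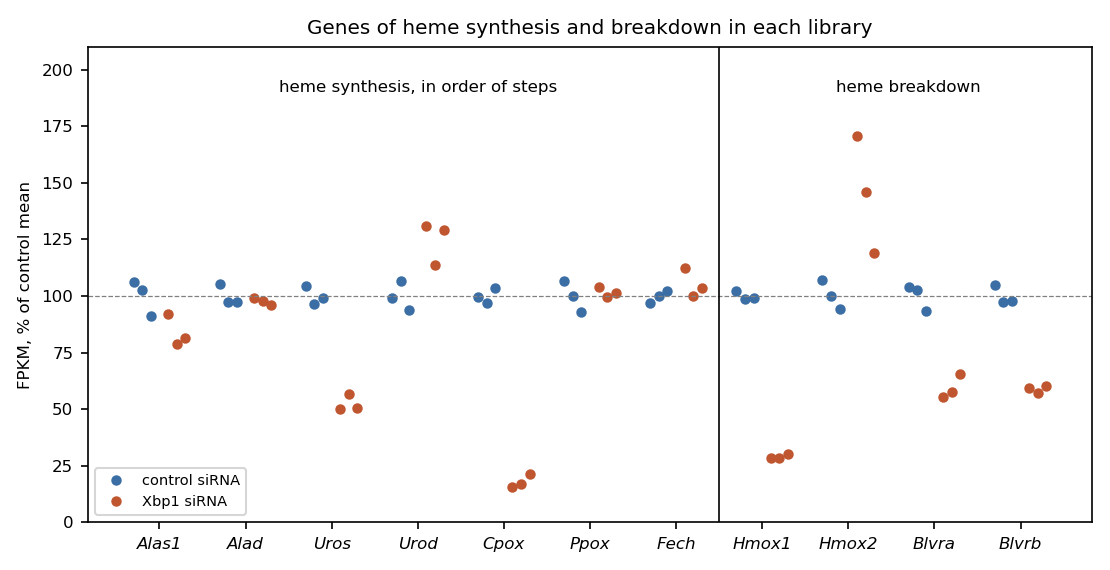
FPKM of each library as a percentage of the control mean (vertical axis, from 0) for selected enzymes of heme synthesis in the order of their steps and for enzymes of heme breakdown, with control siRNA in blue and *Xbp1* siRNA in red. *Cpox*, *Hmox1*, *Uros*, *Blvra* and *Blvrb* lie under the control libraries, *Hmox2* and *Urod* lie above them, and most other steps stay near 100%.

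In heme breakdown, the companion genes of *Hmox1* and *Blvrb* did not move as one. *Hmox2*, the constitutive heme oxygenase, rose from 14.7, 13.7 and 12.9 FPKM to 23.4, 20.0 and 16.3 FPKM, a change of 0.52 on the log2 scale with an adjusted p of 0.0139 (limma). Its *Xbp1* siRNA libraries were all above the control libraries but spread widely. *Blvra*, the main biliverdin reductase of adult tissue, fell from 29.0, 28.7 and 26.0 FPKM to 15.4, 16.1 and 18.3 FPKM, a change of −0.75 on the log2 scale with an adjusted p of 2.78e-04 (limma), beside −0.76 for *Blvrb*. With control siRNA the mean of *Hmox1* was 1813 FPKM and that of *Hmox2* 13.7 FPKM, and with *Xbp1* siRNA they were 524 and 19.9 FPKM, so *Hmox1* stayed the more abundant of the pair.

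Among heme transporters, *Flvcr1*, a heme exporter at the plasma membrane, fell (log2 fold change −0.43, adjusted p = 0.0113, limma), and *Abcb10*, an ABC transporter of the mitochondrial inner membrane that takes part in heme synthesis, rose (0.48, adjusted p = 0.0183, limma), with an adjusted p of up to 0.0695 in 2 of 14 alternatives. *Flvcr2* rests on 2, 0 and 0 reads with control siRNA and on 8, 6 and 7 reads with *Xbp1* siRNA, a ratio of 9.68 (95% interval 2.37 to 85.1, counting error only) that is conditioned on the same filter. Without any one of the *Xbp1* siRNA libraries it fell under the filter and was not tested. It was not called in 6 of the 10 alternatives that gave it a value, with either other pseudocount among them. In all, 9 of the 10 genes of heme breakdown and transport tested passed the adjusted p, 4 lower (40.0%) and 5 higher (50.0%), beside 20.2% of all genes in each direction, and *Flvcr2* is among the 5.

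The genes of iron-sulfur cluster assembly, which uses mitochondrial iron, included the other 2 genes called lower. *Glrx5*, the glutaredoxin that passes clusters on, had 151, 148 and 148 FPKM with control siRNA and 71.3, 71.9 and 68.7 FPKM with *Xbp1* siRNA, and the log2 fold change was −1.07 (SE 0.032, adjusted p = 1.59e-06, limma). *Fdx1*, a mitochondrial ferredoxin, had 40.2, 44.6 and 38.4 FPKM against 21.3, 18.4 and 21.2 FPKM, a log2 fold change of −1.01 (SE 0.079, adjusted p = 6.52e-05, limma). In both genes the conditions were far apart, but the fold changes sit at the limit. After quantile normalization both were −0.98 and neither was called, and *Fdx1* was also under the limit without control replicate 2 (−0.95), without *Xbp1* siRNA replicate 2 (−0.94) and with a pseudocount of 1 (−0.98).

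Of the 23 genes of this group tested, 6 were lower (26.1%) and 4 higher (17.4%) at an adjusted p under 0.05, shares near the 20.2% of all genes in each direction. *Cisd2*, an iron-sulfur protein of the endoplasmic reticulum, fell with a log2 fold change of −0.60, and *Iscu*, the scaffold on which clusters are built, with −0.40. *Fdxr*, the reductase that supplies ferredoxins with electrons, had 0.34, and its adjusted p of 0.0206 (limma) exceeded 0.05 in 5 of 14 alternatives, up to 0.0692. *Fdx2*, the other ferredoxin gene of the group, did not pass (−0.11, adjusted p = 0.214, limma), with overlapping conditions. It is named after its values were seen.

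Of 7 iron uptake genes tested other than *Tfrc* and *Slc11a2*, 2 were lower (28.6%) and 3 higher (42.9%) at an adjusted p under 0.05, beside 20.2% of all genes in each direction. *Slc11a1*, the metal transporter of phagosomes and lysosomes, fell from 5.44, 7.14 and 7.03 FPKM to 3.52, 3.31 and 3.71 FPKM, a change of −0.87 on the log2 scale with an adjusted p of 0.00144 (limma). *Steap1*, a heme-binding member of the STEAP metalloreductase family, rose from 33.0, 31.6 and 31.0 FPKM to 55.9, 52.1 and 47.5 FPKM (log2 fold change 0.70, adjusted p = 1.45e-04, limma). The zinc and iron importer *Slc39a14* fell (−0.35), while its relative *Slc39a8* had 0.18, with an adjusted p of 0.0370 (limma) that exceeded 0.05 in 7 of 14 alternatives, up to 0.115. Of the cytosolic iron chaperones that load ferritin, *Pcbp2* rose (0.38, adjusted p = 9.34e-05, limma) and *Pcbp1* fell (−0.32, adjusted p = 0.00209, limma), the genes that passed among 5 tested for storage, export and mitochondrial import (20.0% in each direction, beside 20.2% of all genes).

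Among 11 regulators tested, 3 were lower (27.3%) and 1 higher (9.09%) at an adjusted p under 0.05, beside the same 20.2% of all genes either way. *Nfe2l2*, which encodes NRF2, had 156, 164 and 161 FPKM with control siRNA and 119, 116 and 118 FPKM with *Xbp1* siRNA, a change of −0.45 on the log2 scale with an adjusted p of 4.17e-05 (limma). The mRNAs of *Mafk* and *Mafg*, which encode small MAF proteins that pair with NRF2 or with BACH1, were lower as well, *Mafk* by −0.72 on the log2 scale at an adjusted p of 5.28e-05 (limma) and *Mafg* with −0.46. *Hfe*, which binds the transferrin receptor, had 0.54 (adjusted p = 0.0398, limma), and this p exceeded 0.05 in 7 of 14 alternatives, up to 0.117. *Bach1* (−0.16, adjusted p = 0.265) and *Keap1*, which holds NRF2 in check (0.20, adjusted p = 0.0796, limma), did not pass and are named after their values were seen. Whether these differences take part in those of *Fth1* and *Hmox1* was not tested.

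**Figure D4:**
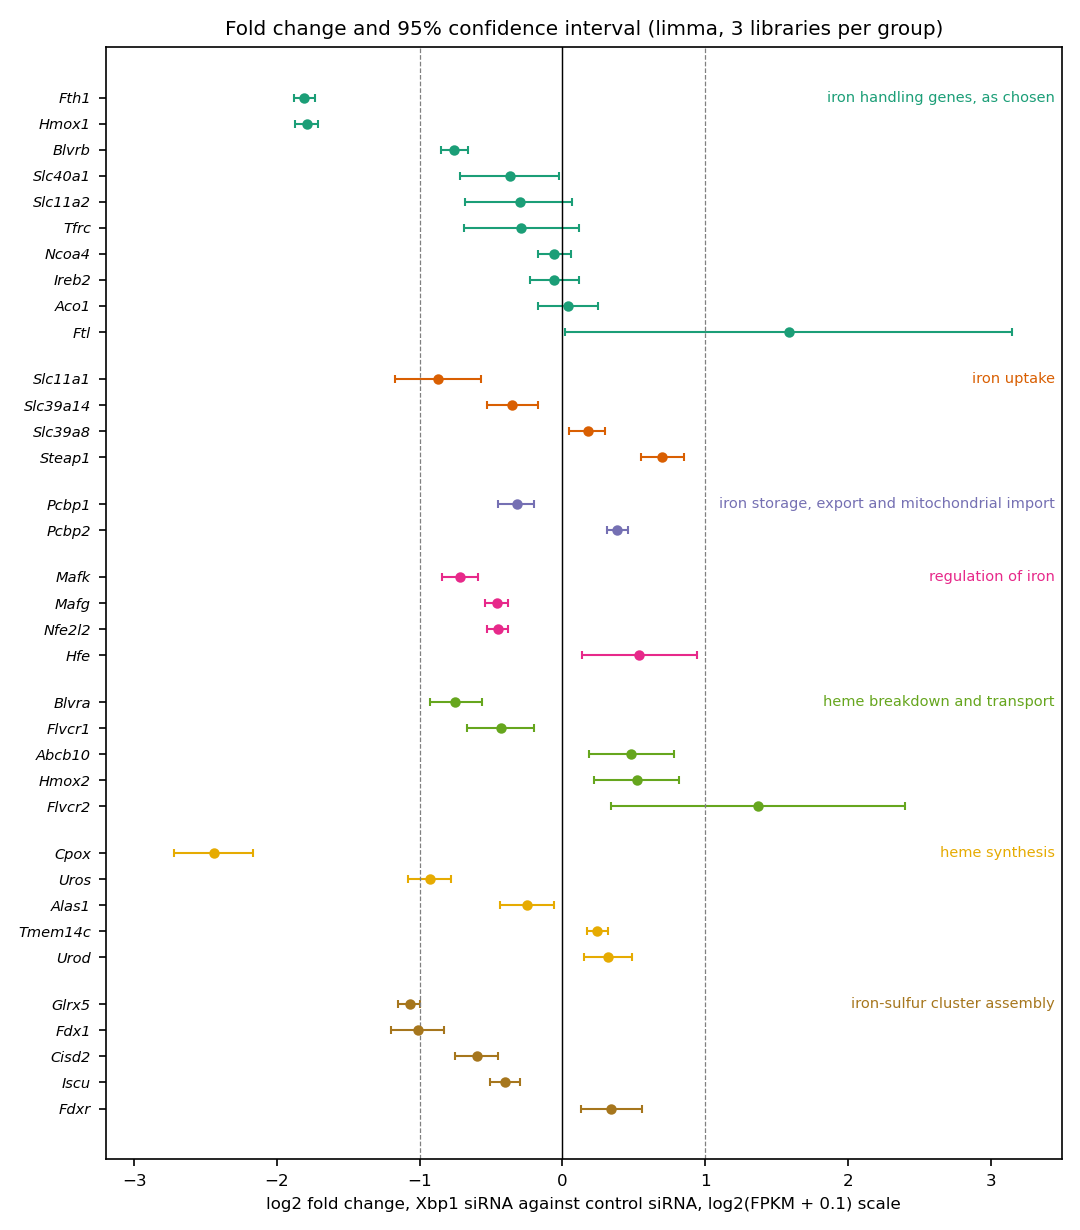
Log2 fold change with *Xbp1* siRNA (horizontal axis, limma, 3 libraries per group) of the 10 iron handling genes and of 25 other iron and heme genes by group. Points are fold changes, bars are 95% confidence intervals and dashed lines mark a log2 fold change of 1 in each direction. *Fth1* and *Hmox1* stand far to the left with narrow bars, *Cpox* stands farther left with a wider bar, and the bars of *Ftl* and *Flvcr2*, which rest on few reads, are the widest.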

How the data were processed

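The authors deposited 1 table of FPKM for each of 6 libraries (3 per condition). TruSeq stranded mRNA libraries were sequenced, and the submitters' processing notes name HISAT2 2.1.0 and Cuffdiff 2.2.1. The genome build and annotation are not given in the sources used here, so no coordinates are given, and promoter and transcript sequences were not analysed here.

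FPKM are not counts, so a count model was not used. The log2(FPKM + 0.1) values of 14361 genes with a mean of at least 0.1 FPKM were fitted in limma 3.58.1 (R 4.3.3; lmFit, eBayes with trend), with Benjamini-Hochberg adjustment over all of them. The fold changes understate those of weakly expressed genes. In 10 simulated data sets, 79.8% of 200 genes changed by 1.5 on the log2 scale were called on average, with 5.7 unchanged genes. The simulated noise was normal, without read steps, and 200 is far fewer than the 5802 genes with an adjusted p under 0.05 here (limma). These rates therefore need not hold for the real libraries. Read numbers are the smallest whole numbers that give back the FPKM of a gene in all 6 libraries within 0.001 reads plus 4e-06 of their number, up to 3000, given relative depths from the commonest ratio of low values, and cover counting error only. Other steps used Python 3.11.15.

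The 10 genes, the lists and the tests were chosen with earlier results of these data known. Named genes of the list are those called and, in each group, up to 4 more with the largest fold change at an adjusted p under 0.05, and some genes of the list count in its totals but are not reported here. RefSeq gene names of the assembly CriGri-PICRH-1.0 were used for matching. Alternatives were other pseudocounts, filters, scalings and thresholds, no trend, a replicate block and leaving out each library.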

Additional observations from a re-analysis of the deposited data

How the results depend on the processing

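Calls over all genes dropped to 114 higher and 205 lower under a pseudocount of 1, and with a filter at a mean of 1 FPKM 242 were higher. Without the fold limit 2898 were higher and 2904 lower, and of the 67 list genes 16 were higher and 19 lower. The 1 list gene called higher, *Flvcr2*, left 0 called with a pseudocount of 1 or 0.01, the filter at 1 FPKM, quantile normalization or the replicate block, and quantile normalization left 1 list gene called lower, *Cpox*. When single libraries were left out, calls numbered 329 to 380 higher and 346 to 369 lower over all genes, 0 to 1 list genes higher, 2 to 3 list genes lower, and 0 to 1 of the 10 iron handling genes higher. That gene was *Ftl*, without *Xbp1* siRNA replicate 2, and it was also called higher with the replicate block (1 gene), and its log2 fold change of 1.59 lay between 0.48 and 2.79 with other pseudocounts. *Fth1* and *Hmox1* were called lower under every alternative run, but they were selected on these same values, so this is a description only. Of 139 recomputed log2 fold changes of the 10 genes, 134 moved by no more than the SD between libraries, the exceptions being those of *Ftl* above and quantile normalization for *Fth1*, *Hmox1* and *Blvrb* (−0.63). None of the 25 named list genes changed sign under the alternatives that gave a value, and 17 kept their side of the limits. The replicate numbers were not taken as pairs: deviations of same-numbered libraries correlated across genes with r of −0.0289, −0.0265 and −0.0124. Beyond the calls named here, the replicate block left *Slc39a8* with an adjusted p of 0.0672 (limma). Genes with fewer than about 100 reads a library (*Tfrc*, *Slc40a1*, *Ftl*) are limited by counting error. The ratio of *Fth1* to *Ftl* was planned and gave no value.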
